A study of Mus musculus with 24 samples.

Results

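Gene expression in the room air retina of C57Bl/6 mouse pups was compared between postnatal day 10 and postnatal day 8. The comparison took the 3 arrays labelled day 10, normoxia and the 3 labelled day 8, normoxia, which are 6 of the 24 arrays of the series. The other 18 arrays held retina of room air pups at days 7 and 12, and of pups kept in hyperoxia for 12, 24, 72 or 120 hours up to days 7, 8, 10 and 12. Each array measured total RNA of mouse retina. The labels name no transgene or drug, and they give no time of day, sex, number of animals per array or dissection method. They also do not say whether the 3 replicates of a group came from separate animals. Each p-value reflects the variation between arrays within groups, pooled over all 8 groups of the series, and this variation may be technical.

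In the mouse the retina is still being built at this age. The last cells to be born, late rods, bipolar cells and Müller glia, leave the cell cycle around the end of the first postnatal week, and rods then grow the outer segments that hold the phototransduction cascade. In that cascade a light-activated opsin switches on the G protein transducin, transducin activates a phosphodiesterase, and the fall in cyclic GMP closes a cation channel. Bipolar cells meanwhile form synapses with the photoreceptors, and Müller glia acquire the channels and enzymes that clear water and glutamate. Eye opening follows some days later.

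Between days 8 and 10, 7 of 19 measured rod phototransduction genes rose. So did 5 of 14 outer segment and photoreceptor upkeep genes, 4 of 21 Müller glia genes and 2 of 15 bipolar cell genes. Falls were called for 2 of 20 progenitor genes and 2 of 16 genes of the G1 phase. Of 15838 probe sets tested, 167 were called at an adjusted p under 0.05 in limma with Benjamini-Hochberg adjustment (1.05%). Of these, 124 were higher at day 10 (0.783%) and 43 were lower (0.271%), so 74.3% of the calls were higher. The called probe sets with a single gene symbol stood for 141 genes, 108 higher and 33 lower. In all 167 the 3 arrays of one day lay wholly above the 3 of the other, against 9.45% of all probe sets with day 10 wholly higher and 8.62% with day 10 wholly lower. The calls were made on these same arrays, so the separation follows largely from the call and is not separate support. With 1 probe set per gene, the brightest, 123 of 9266 genes were called (1.33%), 95 higher (1.03%) and 28 lower (0.302%), and the median difference over all genes was -0.00.

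The size of this set depended on single arrays. Without day 8 replicate 1 the count was 57, without day 8 replicate 3 it was 34, and without day 10 replicate 1, 2 or 3 it was 53, 63 or 77. Without day 8 replicate 2 it was 190. All 167 kept their direction in each of these 6 fits, which follows from the separation of the 2 days and is not separate support. In every one of the 6 fits 27 were called, 23 higher and 4 lower. With only the 6 arrays compared in the fit 1 probe set was called, for Drd4, and the other 48 of 49 named called probe sets were not. With the deposited scaling in place of quantile normalization the calls were 124 higher and 86 lower, so 59.0% were higher. The median deposited intensity, which this scaling leaves unequal, was 663, 609.6 and 628 on the day 8 arrays and 573, 572 and 596 on the day 10 arrays, lower on each day 10 array than on any day 8 array.

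**Figure D1:**
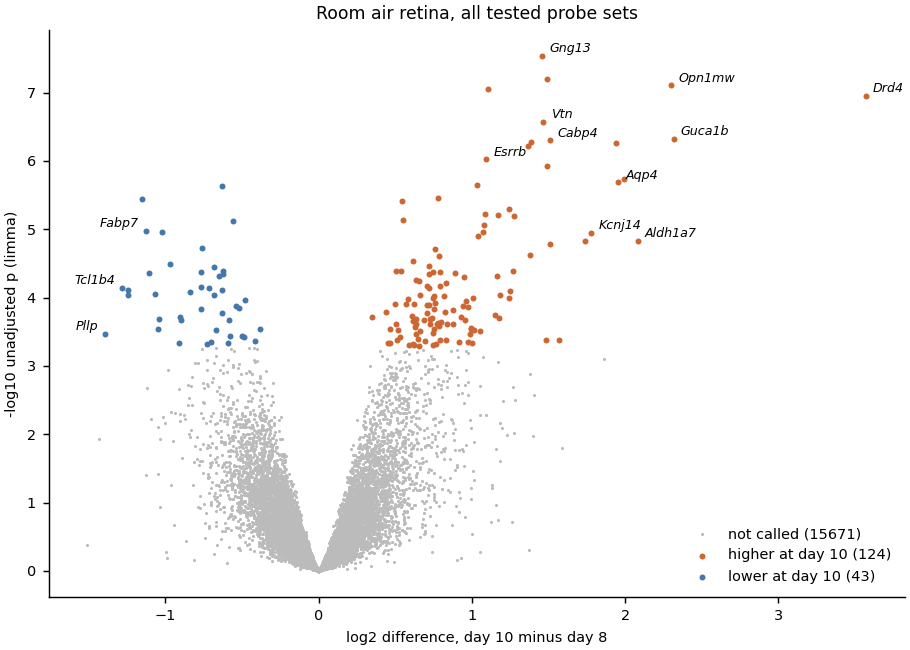
Difference between days 8 and 10 in room air for each of the 15838 tested probe sets (horizontal axis, log2 day 10 minus day 8) against the -log10 of the unadjusted limma p (vertical axis). Orange points are the 124 probe sets called higher and blue points the 43 called lower, and Drd4 lies farthest to the right at 3.57.

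The samples carried the markers of retina and varying amounts of lens. Rod genes Gnat1, Pde6b and Nrl and the ganglion cell gene Nefl lay above the 97th percentile of all probe sets, and markers of cones, bipolar cells, amacrine cells and Müller glia were measured too. The lens list, 17 crystallin and lens membrane genes, had a mean log2 intensity of 12.94, 10.90 and 8.94 on the day 8 arrays and of 10.83, 9.94 and 12.33 on the day 10 arrays. The 2 days overlapped, and 0 of its 17 genes were called. The pigment epithelium list of 15 genes averaged 9.87, 9.94 and 9.62 at day 8 and 10.47, 9.80 and 9.95 at day 10, which also overlapped, with 0 called and 14 of 15 differences positive. Their part in the results was tested by adding both scores as covariates, after which 117 probe sets were called and 84 of the 124 higher and 27 of the 43 lower calls remained. Among the calls that ended were those of Rcvrn, Impg1, Abca4, 1 of the 2 Dbp probe sets, Car8, Cplx4, Calb1, Abca8a, Cav2, Notch1, Sox3, Inhbb and Dcx. The highest limma adjusted p among these was 0.0803, for Cav2. All 167 probe sets kept their sign in that fit. The differences of Impg1, Cplx4, Abca8a and Notch1 went from 1.00, 0.72, 1.05 and -0.90 to 1.01, 0.67, 0.93 and -0.86. The corneal markers Krt12 and Krt5 and the red cell gene Hba-a1 did not pass the filter on low values. The red cell gene Alas2 and the muscle genes Acta1 and Ckm passed it. In the red cell list 0 of 2 tested genes were called and in the muscle list 0 of 3, with all differences positive.

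Among the genes of rod phototransduction, 7 of 19 measured rose and 0 fell. The median difference was 0.43 on the log2 scale, and 17 of 19 differences were positive. The list's mean log2 intensity was 12.42, 12.70 and 12.46 on the day 8 arrays and 13.07, 13.11 and 13.27 on the day 10 arrays, which did not overlap. These are whole-tissue values, in which more rods and more RNA per rod cannot be told apart.

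The largest rise in the list was that of Guca1b, a calcium sensor that stimulates the guanylate cyclase of photoreceptors. Its log2 intensity was 10.50, 10.95 and 9.57 at day 8 and 12.89, 12.70 and 12.38 at day 10. All day 10 arrays were above all day 8 arrays, and the rise of 2.32 ± 0.31 (standard error of the fit, adjusted p = 0.000871 in limma) is a 4.98-fold change. A second Guca1b probe set stood at -0.09 ± 0.33 and did not pass, so the probe sets of this gene disagree. Gnat1, the alpha subunit of rod transducin, read 13.00, 13.18 and 12.24 at day 8 and 14.50, 14.50 and 14.63 at day 10. The day 10 arrays lay close together and the day 8 arrays spread over almost 1 log2 unit, with replicate 3 lowest. Gnat1 rose by 1.74 ± 0.30 (limma adjusted p = 0.00688).

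The other rod genes that rose serve the later steps of the cascade and the calcium balance. Slc24a1, the rod exchanger that pumps calcium out of the outer segment, went from 11.93, 11.96 and 11.18 to 13.17, 13.16 and 13.27, a rise of 1.51 ± 0.27 (limma adjusted p = 0.00743). Pde6a, the alpha subunit of the rod phosphodiesterase, went from 10.36, 10.62 and 9.95 to 11.38, 11.38 and 11.93, a rise of 1.25 ± 0.25 (limma adjusted p = 0.0184). In both the 2 days were well separated and day 8 replicate 3 was the lowest array. Cnga1, a subunit of the cation channel, rose by 0.74 ± 0.15, Gnb5, a partner of the protein that shuts transducin off, by 0.57 ± 0.12, and Rcvrn, recoverin, by 0.47 ± 0.11. Members of the same cascade that did not pass included Guca1a at 0.43 ± 0.11 (limma adjusted p = 0.085), Grk1, a kinase that helps to end the light response, at 0.99 ± 0.50, and Pde6b, the beta subunit of the phosphodiesterase, at 0.13 ± 0.10. Pde6b read 14.46, 14.57 and 14.24 at day 8, so it was already bright and its days overlapped. Guca1b stayed called whichever of the 6 arrays was left out. The calls of Gnat1 and Slc24a1 ended without day 8 replicate 3 (limma adjusted p = 0.0665 and 0.0706), and those of Pde6a, Cnga1, Gnb5 and Rcvrn ended without at least day 8 replicate 1, day 8 replicate 3 or day 10 replicate 3, each left out on its own.

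**Figure D2:**
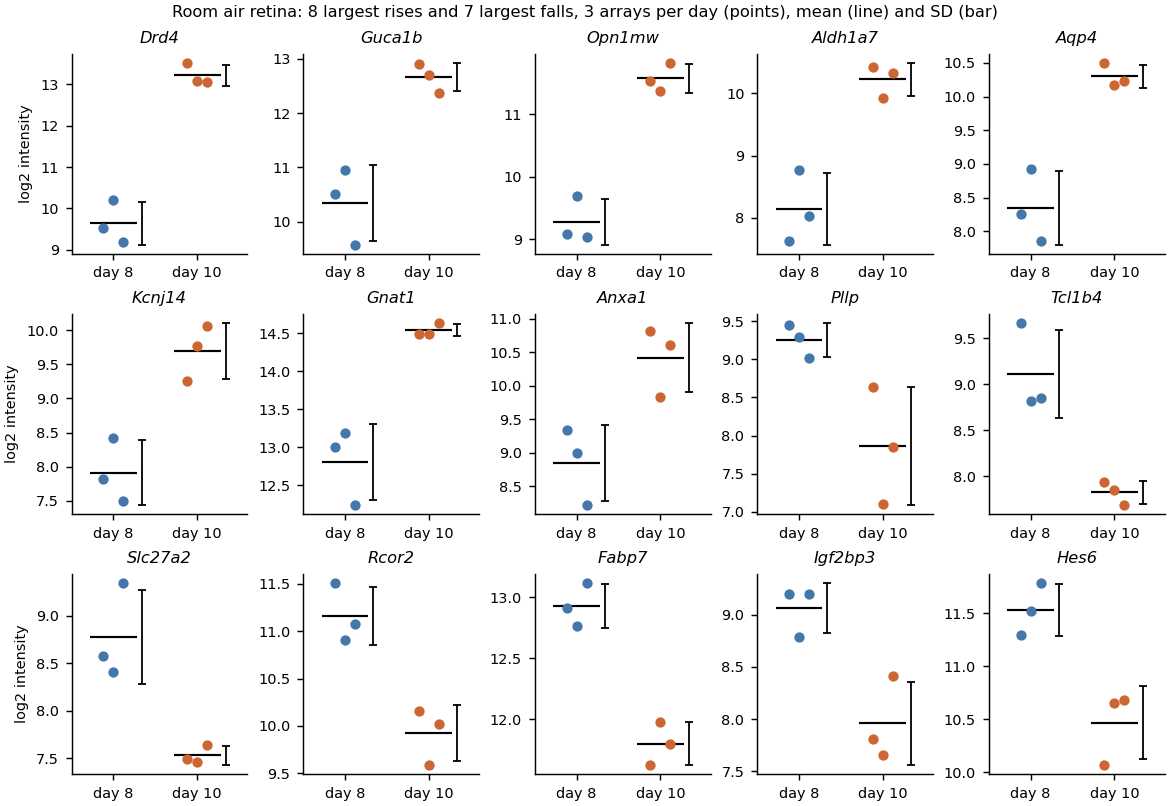
Log2 intensity on each of the 3 arrays at day 8 (blue) and at day 10 (orange) for the 8 largest rises and the 7 largest falls, with the mean as a line and the SD as a bar beside the points. In every panel the points of the 2 days do not overlap, and the vertical scale differs between panels.

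Genes of the outer segment and of photoreceptor upkeep rose in 5 of 14 cases, with 0 falls and a median of 0.28. Cabp4, a calcium-binding protein of the photoreceptor synapse, read 9.76, 10.39 and 9.69 at day 8 and 11.39, 11.55 and 11.43 at day 10. The day 10 arrays agreed closely and lay about 1 log2 unit or more above each day 8 array, a rise of 1.51 ± 0.21 (limma adjusted p = 0.000871). Impg1, a protein of the matrix around the outer segments, rose by 1.00 ± 0.24, and Aipl1, a chaperone of the rod phosphodiesterase, by 0.79 ± 0.15. Rdh12, a retinol dehydrogenase, rose by 0.66 ± 0.13, and Abca4, the transporter that clears retinaldehyde from the discs, by 0.52 ± 0.12. Prph2, a structural protein of the disc rim, stood at 0.65 ± 0.27 (limma adjusted p = 0.32), and Prom1, Rp1 and Tulp1 lay between 0.03 and 0.15. In the list of 15 genes of the photoreceptor cilium 0 were called, with a median of 0.13. Cabp4 stayed called whichever array was left out, whereas the call of Impg1 ended without each array but day 8 replicate 2, and that of Abca4 whichever array was left out (limma adjusted p up to 0.203). The Aipl1 call reported here ended without day 8 replicate 3 or day 10 replicate 1 or 2, and the Rdh12 call without each array but day 8 replicate 2.

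Photoreceptor transcription factors did not share this pattern: of 11 measured, 1 rose, 1 fell and the median was -0.09. Esrrb, an orphan nuclear receptor of rods, went from 10.78, 11.08 and 10.61 to 12.00, 11.83 and 11.91. It rose by 1.09 ± 0.16 (limma adjusted p = 0.00125), in well-separated groups, and stayed called whichever array was left out. Prdm1, a repressor that keeps young photoreceptors from becoming bipolar cells, went the other way, from 12.69, 12.29 and 12.58 to 11.69, 11.92 and 11.91. It fell by 0.68 ± 0.14 (limma adjusted p = 0.0193). Crx and Nrl, the regulators of photoreceptor and rod genes, stood at 0.01 ± 0.13 and 0.01 ± 0.08, and Otx2, which acts before them, at -0.48 ± 0.19 (limma adjusted p = 0.27). The call of Prdm1 ended without each array but day 8 replicate 2 (limma adjusted p up to 0.121).

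Of 8 cone genes 1 rose, the opsin of medium-wavelength cones, Opn1mw. It read 9.09, 9.69 and 9.04 at day 8 and 11.53, 11.37 and 11.82 at day 10. The 2 days were far apart for their spread, the rise was 2.30 ± 0.28 (limma adjusted p = 0.000349), a 4.92-fold change, and it stayed called whichever array was left out. The short-wavelength opsin Opn1sw read 13.34, 13.35 and 13.39 at day 8 and 13.45, 13.46 and 13.52 at day 10. Its difference of 0.11 ± 0.12 did not pass (limma adjusted p = 0.77), although the 2 days did not overlap. Cone phosphodiesterase Pde6c stood at 1.16 ± 0.44, cone arrestin Arr3 at 0.81 ± 0.29 and cone transducin Gnat2 at 0.32 ± 0.10, and none of these passed.

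The widest difference among all tested probe sets was in Drd4, the D4 dopamine receptor, which in the retina is carried mainly by photoreceptors and whose transcript is known to rise at night. The brighter response came from a probe set that read 9.52, 10.21 and 9.20 at day 8 and 13.51, 13.08 and 13.05 at day 10. No other called gene separated the 2 days by as much: the rise was 3.57 ± 0.44 (limma adjusted p = 0.000352), an 11.9-fold change. A second probe set went from 9.65, 9.94 and 9.20 to 11.75, 11.66 and 11.35, a rise of 1.99 ± 0.30 (limma adjusted p = 0.00211). Drd4 stands in the list of clock-linked genes, of which 2 of 15 measured rose, with 13 of 15 differences positive and a median of 0.27. The other was Dbp, a transcription factor that the clock drives, which went from 10.70, 11.10 and 10.25 to 11.87, 11.55 and 11.63. It rose by 1.00 ± 0.23 (limma adjusted p = 0.0352), and a second probe set by 0.75 ± 0.17. Bhlhe40 stood at 1.19 ± 0.41, Cry1 at 0.58 ± 0.17, Per2 at 0.37 ± 0.25, Per1 at 0.08 ± 0.20 and Arntl at -0.22 ± 0.10, all short of the threshold. The labels give no time of day for either age, and the part of the time of collection was not tested. Both Drd4 calls held whichever array was left out, whereas both Dbp calls ended without each array but day 8 replicate 2 (limma adjusted p up to 0.213 and 0.17).

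The promoters of these genes were read for the core site of CRX, the homeodomain factor of photoreceptors, because members of the rod and outer segment lists moved together. The motif searched was TAATCC on either strand, in the 250 bases before the start of each gene in RefSeq on GRCm38.p6. Of the 108 genes called higher, 81 had an entry, with 100 windows, and 16 windows (16%) held a match. The share was 5.18% of the 9748 windows of all tested genes and 6.25% of all 32851 windows in the table, and 6.06% of 33 windows of the genes called lower. In the rod list 8 of the 14 genes with an entry held a match (57.1%), against 6.4% of the 7510 tested genes with an entry. Of the called rod genes Cnga1 and Gnb5 held a match, Slc24a1 held none, and Guca1b, Gnat1, Pde6a and Rcvrn had no entry. The other matches of that list lay in genes that were not called. The share of genes was 25% in the outer segment list and 23.1% in the Müller glia list. A match is a run of letters, not a measured site. For the E2F-type motif, on either strand, the share was 3.03% of the windows of genes called lower and 2.37% of those of all tested genes. In the cell cycle lists it was 4 of 32 windows for DNA replication (12.5%), 2 of 15 for the G1 phase (13.3%) and 0 of 24 for mitosis. Printed here, 5' to 3' along each gene, are the windows of the 2 largest rises with an entry. With them are those of 3 genes from the rod and outer segment lists that rose and held a match. Capitals mark the match, as TAATCC or as its reverse complement GGATTA.

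The Drd4 window lies at chr7:141291768-141292017 on the plus strand and holds no match.
Drd4: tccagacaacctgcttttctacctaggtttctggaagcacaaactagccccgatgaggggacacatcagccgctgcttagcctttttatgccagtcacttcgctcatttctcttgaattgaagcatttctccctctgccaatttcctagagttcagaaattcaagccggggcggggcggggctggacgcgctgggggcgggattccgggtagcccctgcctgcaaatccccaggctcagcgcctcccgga
The Opn1mw window lies at chrX:74127216-74127465 on the plus strand and holds no match.
Opn1mw: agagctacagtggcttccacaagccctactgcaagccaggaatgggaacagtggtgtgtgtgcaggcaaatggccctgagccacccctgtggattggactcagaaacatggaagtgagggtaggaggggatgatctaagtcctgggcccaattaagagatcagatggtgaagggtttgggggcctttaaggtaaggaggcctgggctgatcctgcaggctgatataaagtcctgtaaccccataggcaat
The Cnga1 window lies at chr5:72642753-72643002 on the minus strand, and its match starts 228 bases before the gene.
Cnga1: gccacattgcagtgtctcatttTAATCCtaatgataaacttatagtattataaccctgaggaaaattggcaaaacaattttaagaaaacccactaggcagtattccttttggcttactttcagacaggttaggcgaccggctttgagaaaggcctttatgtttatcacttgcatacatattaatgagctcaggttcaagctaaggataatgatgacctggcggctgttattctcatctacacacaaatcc
The Aipl1 window lies at chr11:72037510-72037759 on the minus strand, with the match 53 bases before the gene.
Aipl1: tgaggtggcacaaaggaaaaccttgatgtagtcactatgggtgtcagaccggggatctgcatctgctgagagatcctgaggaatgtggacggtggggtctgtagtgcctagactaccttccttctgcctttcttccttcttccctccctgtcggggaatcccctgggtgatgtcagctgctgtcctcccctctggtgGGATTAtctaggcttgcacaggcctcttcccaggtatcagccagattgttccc
The Abca4 window lies at chr3:122044210-122044459 on the plus strand, with the match 58 bases before the gene.
Abca4: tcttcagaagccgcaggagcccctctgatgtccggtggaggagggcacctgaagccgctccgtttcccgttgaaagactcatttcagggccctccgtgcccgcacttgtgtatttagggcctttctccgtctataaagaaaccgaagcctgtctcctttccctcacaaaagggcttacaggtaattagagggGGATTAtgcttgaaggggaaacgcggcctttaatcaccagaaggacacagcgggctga

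Bipolar cell genes rose in 2 of 15 cases, with 0 falls and a median of 0.23. Gng13, a G protein gamma subunit of bipolar cells that respond to light onset, read 9.97, 10.17 and 9.89 at day 8 and 11.60, 11.44 and 11.35 at day 10. Its replicates were tight at both ages, and the rise of 1.46 ± 0.16 (limma adjusted p = 0.000349) held whichever array was left out. Car8, a carbonic anhydrase-like protein, went from 10.77, 10.84 and 10.31 to 11.72, 11.61 and 11.44, a rise of 0.95 ± 0.21, and its second probe set rose by 0.97 ± 0.23. Pcp2, a marker of the same cells, stood at 0.74 ± 0.19 (limma adjusted p = 0.065), Cabp5 at 0.64 ± 0.19, and Vsx1, a factor of some cone bipolar cells, at -0.44 ± 0.12 (limma adjusted p = 0.082). Prkca, a marker of rod bipolar cells, was at -0.10 ± 0.21. The first Car8 call ended without each array but day 8 replicate 2 (limma adjusted p up to 0.176), and the second whichever array was left out (limma adjusted p up to 0.206).

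Among genes of synapses and channels 1 rose in each of 3 lists and 0 fell. In the ribbon and vesicle list, with a median of 0.14, 1 of 22 rose, Cplx4, a complexin of photoreceptor ribbon synapses, from 12.33, 12.23 and 11.97 to 12.84, 12.83 and 13.02, by 0.72 ± 0.15 (limma adjusted p = 0.0226). Snap25 and Syp, found at most synapses, stood at -0.01 ± 0.09 and -0.06 ± 0.14. Among 13 receptors for glutamate, GABA and glycine, with 11 positive differences and a median of 0.25, 1 rose, Gabrr2, a subunit of GABA receptors on bipolar cells, from 8.28, 8.11 and 7.57 to 9.58, 9.01 and 9.17. It rose by 1.27 ± 0.24 (limma adjusted p = 0.0133), while Gabrr1 stood at 0.29 ± 0.13. Of 14 potassium channel genes, with 10 positive differences and a median of 0.25, 1 rose, Kcnj14, an inward rectifier, from 7.82, 8.43 and 7.50 to 9.25, 9.77 and 10.06. The day 10 arrays spread by 0.8 but stayed above all of day 8, and the rise was 1.78 ± 0.30 (limma adjusted p = 0.00575). All 3 calls ended without day 8 replicate 3 (limma adjusted p = 0.149, 0.115 and 0.0574), those of Cplx4 and Gabrr2 also without day 10 replicate 1, and that of Cplx4 also without day 10 replicates 2 and 3.

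The remaining inner retinal lists held few or no calls. Of 8 horizontal cell genes 1 rose, Calb1, calbindin, by 0.77 ± 0.17 (limma adjusted p = 0.0317). The 17 amacrine and 16 ganglion cell genes had 0 calls and medians of 0.08 and 0.03. In these lists Vip, a peptide of some amacrine cells, stood at 0.68 ± 0.17 (limma adjusted p = 0.053), Calb2, calretinin, at 0.53 ± 0.14 (limma adjusted p = 0.078) and Slc17a6, the glutamate transporter of ganglion cells, at 0.56 ± 0.14 (limma adjusted p = 0.068). A second Slc17a6 probe set stood at 0.08 ± 0.18. With the replicate number as a block Vip and Calb2 passed (limma adjusted p = 0.0237 and 0.0355). The Calb1 call ended without each array but day 8 replicate 2 and day 10 replicate 3 (limma adjusted p up to 0.203).

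Müller glia genes rose in 4 of 21 cases, with 0 falls, 17 positive differences and a median of 0.24. Aqp4, the water channel of glial endfeet, read 8.25, 8.93 and 7.85 at day 8 and 10.50, 10.17 and 10.23 at day 10. Every day 10 array lay more than 1 log2 unit above every day 8 array, and the rise was 1.95 ± 0.29 (limma adjusted p = 0.00214), a 3.87-fold change. Its brighter probe set, which counts in the list, rose by 1.24 ± 0.20. Clu, clusterin, a secreted chaperone, went from 11.59, 11.97 and 11.28 to 13.08, 12.60 and 12.66, a rise of 1.17 ± 0.19 (limma adjusted p = 0.00423), and 2 further probe sets rose by 0.75 and 1.18.

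Glul, glutamine synthetase, which turns glutamate into glutamine, went from 12.50, 12.82 and 12.35 to 13.58, 13.32 and 13.27, a rise of 0.83 ± 0.16 (limma adjusted p = 0.0161). Abca8a, a lipid transporter, rose by 1.05 ± 0.24. Other genes by which mature Müller glia are known did not pass, among them Rlbp1, a retinaldehyde-binding protein, at 0.10 ± 0.15, Slc1a3, the glutamate transporter, at 0.20 ± 0.26 and Kcnj10, the potassium channel, at -0.05 ± 0.16. In the list of astrocyte and gliosis genes 0 of 7 were called, with Gfap at -0.02 ± 0.17. The Aqp4 calls and the Clu call of 1.17 held whichever array was left out, while the call of Glul ended without day 8 replicate 1, day 8 replicate 3 or day 10 replicate 1, and that of Abca8a without each array but day 8 replicate 2.

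**Figure D3:**
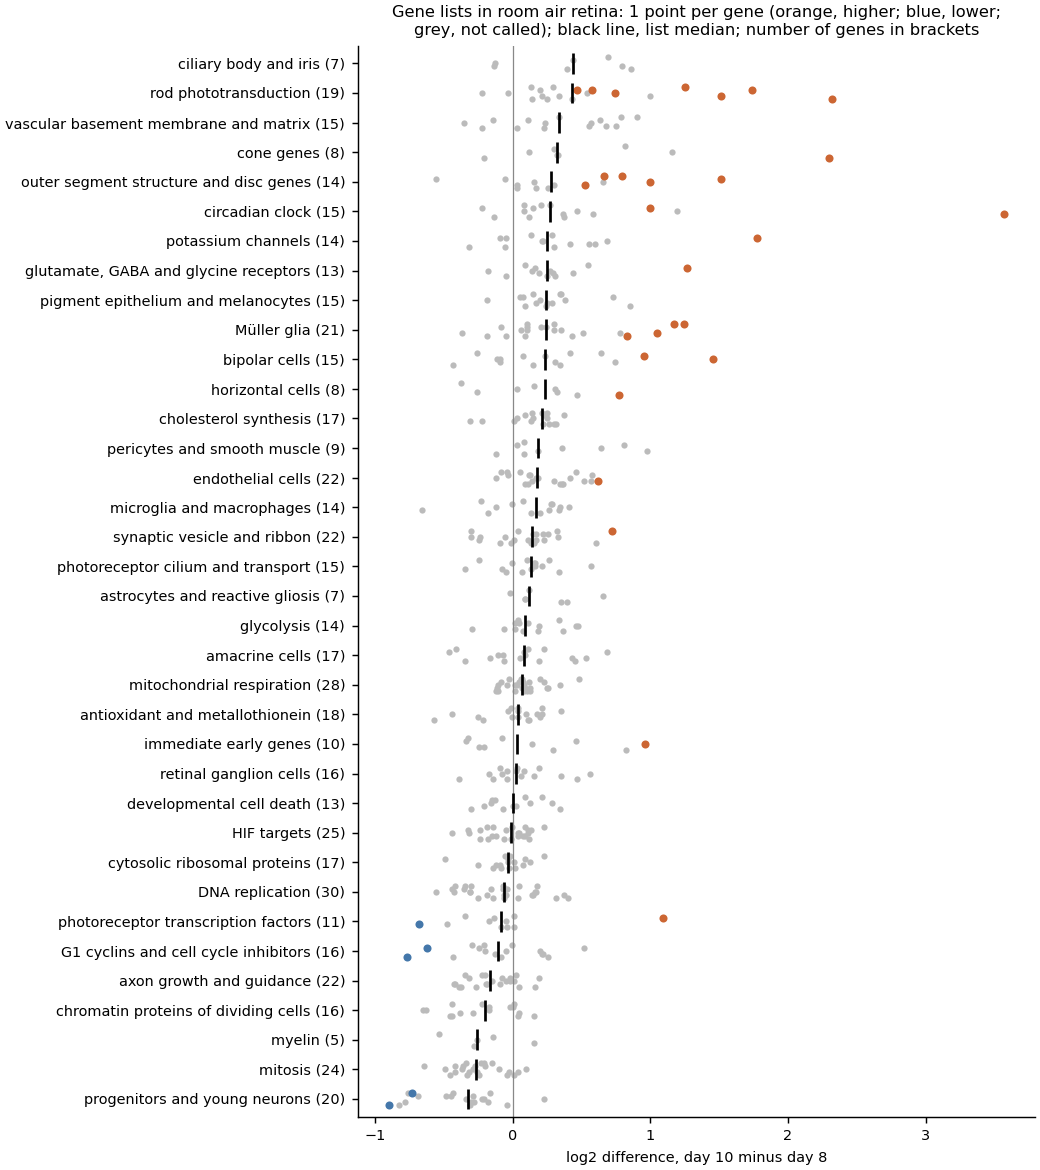
Log2 difference between days 8 and 10 (horizontal axis) for each measured gene of the lists with at least 5 measured genes, 1 row per list in order of its median, shown as a black line. Orange genes were called higher and blue genes lower; rod genes have a median of 0.43 and progenitor genes one of -0.33, and the lens list is left out because its differences reach -1.51 with large errors.

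Genes of progenitors and young neurons were lower at day 10 in 19 of 20 measured cases, 2 of which passed, with a median of -0.33. The list's mean log2 intensity was 11.08, 10.93 and 11.08 at day 8 and 10.66, 10.65 and 10.55 at day 10, without overlap. Hes6, a factor that promotes neuronal differentiation of progenitors, read 11.30, 11.52 and 11.78 at day 8 and 10.07, 10.65 and 10.68 at day 10. The fall, by 1.06 ± 0.22 (limma adjusted p = 0.0193), was matched by one of 0.73 ± 0.17 in a second probe set. Notch1, the receptor that holds progenitors undifferentiated, went from 10.96, 10.92 and 11.23 to 9.84, 10.11 and 10.45, and fell by 0.90 ± 0.20 (limma adjusted p = 0.0292). A second Notch1 probe set stood at -0.09 ± 0.19, so this gene's probe sets disagree.

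Hes5, a target of Notch, stood at -0.79 ± 0.20 (limma adjusted p = 0.069), Sox11 at -0.83 ± 0.29, Neurog2 at -0.77 ± 0.24 and Dll3 at -0.69 ± 0.19, none past the threshold. Dcx, a microtubule protein of young neurons, fell by 0.59 ± 0.14 in one probe set (limma adjusted p = 0.0465), while its brightest stood at -0.49 ± 0.17. Sox2 and Pax6, which Müller glia and amacrine cells keep, were at -0.18 ± 0.17 and 0.23 ± 0.17. The Hes6 call with the larger fall ended without day 8 replicate 3 or day 10 replicate 1 (limma adjusted p = 0.128 and 0.127). The other Hes6 call, the one that counts in the list, ended whichever array was left out (limma adjusted p up to 0.208). The Notch1 call ended without each array but day 8 replicate 2 and day 10 replicate 3. The Dcx call ended whichever array was left out (limma adjusted p up to 0.16).

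Of the 16 cyclins, kinases and inhibitors of the G1 phase, 2 fell, and they are partners in driving cells towards DNA synthesis. Ccnd1, cyclin D1, the main D-type cyclin of retinal progenitors, read 12.62, 12.14 and 12.55 at day 8 and 11.82, 11.71 and 11.47 at day 10. The 2 days did not overlap, the fall was by 0.77 ± 0.15 (limma adjusted p = 0.0176), and a second probe set fell by 0.84 ± 0.17. Cdk4, its kinase, went from 11.92, 12.07 and 12.04 to 11.52, 11.46 and 11.20. It fell by 0.62 ± 0.12 (limma adjusted p = 0.0133), with a second probe set at a fall by 0.63 ± 0.12. The inhibitors Cdkn1b and Cdkn1c stood at -0.30 ± 0.21 and 0.21 ± 0.17.

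Genes of DNA replication and of mitosis were mostly lower but had 0 calls among 30 and 24 list members. The medians were -0.07, with 20 of 30 negative, and -0.27, with 21 of 24 negative. The mean log2 intensity of the mitosis list was 8.80, 8.80 and 8.73 at day 8 and 8.62, 8.60 and 8.35 at day 10, a low level whose median was 0 with the floor at the 40th percentile. Cenpf, a kinetochore protein, stood at -0.65 ± 0.21, Top2a at -0.36 ± 0.23 and Cdk1 at -0.37 ± 0.27. Mcm7, a subunit of the replicative helicase, stood at -0.56 ± 0.14 in its brightest probe set (limma adjusted p = 0.0719) and fell by 0.63 ± 0.13 in another. Kif11, a motor of the mitotic spindle, read 8.50, 8.30 and 8.29 at day 8 and 7.51, 7.10 and 7.42 at day 10 in one probe set, a fall by 1.02 ± 0.17 (limma adjusted p = 0.00575), while its brightest stood at -0.04 ± 0.26. Among 16 chromatin proteins of dividing cells 0 were called, with a median of -0.20, Ezh2 at -0.65 ± 0.18 and Smc2 at -0.46 ± 0.11 (limma adjusted p = 0.052, and 0.042 with the replicate block). The Ccnd1 call ended without day 8 replicate 1 or 3 or day 10 replicate 2 or 3 (limma adjusted p up to 0.121), and that of Cdk4 without day 8 replicate 3 or day 10 replicate 3.

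Most of the largest falls lay outside these lists. Fabp7, a lipid-binding protein of radial glia and progenitors, read 12.91, 12.76 and 13.12 at day 8 and 11.63, 11.97 and 11.80 at day 10. The days were well apart for a spread under 0.4, and it fell by 1.13 ± 0.19 (limma adjusted p = 0.00575). Rcor2, a corepressor of neuronal genes, went from 11.51, 10.91 and 11.08 to 10.16, 9.59 and 10.02, a fall by 1.24 ± 0.25 (limma adjusted p = 0.018). Sox3, a factor of neural progenitors, fell by 1.05 ± 0.24, Myb, a factor of proliferating cells, by 0.97 ± 0.18, Igf2bp3, a fetal RNA-binding protein, by 1.10 ± 0.21, and Cbx2, a Polycomb protein, by 0.76 ± 0.14.

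Pllp, a membrane protein, was at the floor of 7.10 on day 10 replicate 2, and it fell by 1.39 ± 0.32 (limma adjusted p = 0.0386), with 9.45, 9.29 and 9.02 at day 8 and 8.64, 7.10 and 7.85 at day 10. Slc27a2, an activating enzyme and carrier of fatty acids, fell by 1.24 ± 0.25 (limma adjusted p = 0.0193), Tcl1b4 by 1.28 ± 0.26, Inhbb, an activin subunit, by 0.90 ± 0.20 and Enc1, an actin-binding protein of neurons, by 0.77 ± 0.15. The call of Fabp7 ended without day 8 replicate 3 (limma adjusted p = 0.0526), those of Myb and Cbx2 without day 10 replicate 3 and day 8 replicate 1, and those of the other 8 genes of this group without 3 or more single arrays. In the list of axon growth and guidance 0 of 22 were called and 17 differences were negative, with Stmn1, a microtubule regulator of growing neurites, at -0.38 ± 0.11 (limma adjusted p = 0.097, and 0.0337 with the replicate block).

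Several of the largest rises stand in no list. Vtn, vitronectin, an adhesive protein, read 11.75, 11.70 and 10.89 at day 8 and 13.04, 12.92 and 12.79 at day 10. It rose by 1.47 ± 0.19 (limma adjusted p = 0.000704), and a second probe set by 1.94 ± 0.27. Aldh1a7, an aldehyde dehydrogenase, went from 7.63, 8.77 and 8.03 to 10.42, 9.93 and 10.33, a rise of 2.08 ± 0.36 (limma adjusted p = 0.00688). Aqp1, a water channel, went from 8.57, 8.69 and 8.04 to 10.27, 9.81 and 9.70, a rise of 1.49 ± 0.22 (limma adjusted p = 0.00143).

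Lyve1, a receptor for hyaluronan known from lymphatic endothelium and some macrophages, went from 7.10, 7.13 and 7.30 to 8.93, 8.45 and 8.62, a rise of 1.49 ± 0.18 (limma adjusted p = 0.000349), and a second probe set rose by 1.16 ± 0.22. The first lay near the floor at day 8, so its rise is understated, and with the floor at the 40th percentile it was 0.11 and not called. Anxa1, an annexin, rose by 1.57 ± 0.37 and Cav2, a caveolin, by 1.48 ± 0.35 (limma adjusted p = 0.0447 for both), while a second Cav2 probe set stood at 0.24 ± 0.24. Vtn, Aqp1 and the first Lyve1 probe set stayed called whichever array was left out. The call of Anxa1 ended without each array but day 10 replicate 2, that of Cav2 without each array but day 8 replicate 2, and that of Aldh1a7 without day 8 replicate 1 or 3 (limma adjusted p = 0.052 and 0.0512).

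Vessel genes had 1 call over these 2 days. Of 22 endothelial genes 1 rose, Gng11, a G protein gamma subunit, by 0.62 ± 0.15 (limma adjusted p = 0.0468, a call that ended whichever array was left out), with 18 positive differences and a median of 0.18. The list's mean log2 intensity was 9.92, 9.77 and 9.49 at day 8 and 10.25, 9.91 and 9.72 at day 10, and the days overlapped. Pecam1 and Cdh5, junction proteins of endothelium, stood at 0.30 ± 0.26 and 0.17 ± 0.18, and Kdr, the main VEGF receptor, at -0.04 ± 0.16. Among 9 pericyte genes 0 were called, with a median of 0.18 and Pdgfrb, a receptor for platelet-derived growth factor, at 0.98 ± 0.27 (limma adjusted p = 0.096). The 15 genes of the vascular basement membrane and matrix also had 0 calls, with 12 positive differences and a median of 0.34. In 7 of the 15 the day 10 arrays lay wholly above those of day 8, against 11% of all genes tested. Among these were Igfbp7, a secreted protein of the vessel wall, at 0.90 ± 0.24 (limma adjusted p = 0.088), and Col4a1, a basement membrane collagen, at 0.79 ± 0.26 (limma adjusted p = 0.18).

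Genes of the oxygen response and of energy metabolism had 0 calls: 0 of 25 targets of hypoxia-inducible factor (median -0.02), 0 of 14 glycolysis genes (0.09) and 0 of 28 genes of mitochondrial respiration (0.07). Vegfa stood at 0.04 ± 0.13. In the last pair of lists Aldoc and Ckmt1 stood at 0.47 ± 0.12 and 0.48 ± 0.13 (limma adjusted p = 0.074 and 0.088). With the replicate block both passed (limma adjusted p = 0.0433 and 0.0297). There were also 0 calls among 17 cytosolic ribosomal protein genes, 17 cholesterol synthesis genes, 14 microglia genes, 18 antioxidant genes, 13 cell death genes and 5 myelin genes. The immediate early gene Fos read 8.92, 8.64 and 8.91 at day 8 and 9.84, 9.49 and 10.03 at day 10. It rose by 0.96 ± 0.20 (limma adjusted p = 0.0213), the single call in a list of 10, a call that ended without each array but day 10 replicate 2. Egr1, another gene of that kind, stood at 0.46 ± 0.35.

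The same 2 ages were also measured in hyperoxia, on 6 arrays that share none with the room air comparison. Both comparisons take the standard error of a probe set from the same fit over all 24 arrays, so their calls are not independent. In hyperoxia 39 probe sets were called between days 8 and 10 (0.246%). Of the room air calls, 117 of 124 higher and 41 of 43 lower had the same sign in hyperoxia. That is 94.6% in all, against 55.3% of all tested probe sets. The median difference of the higher calls was 0.47 in hyperoxia against 0.79 in room air. For the lower calls it was -0.50 against -0.72. Over all tested probe sets the differences of the 2 conditions had a Pearson correlation of 0.21. The probe sets called in both numbered 24, all in the same direction, which is 14.4% of the 167 and 61.5% of the 39. Among them were Drd4, Opn1mw, Guca1b, Slc24a1, Cabp4, Esrrb, Gng13, Cplx4, Aqp4, Clu and Vtn on the higher side and Prdm1, Cdk4 and Slc27a2 on the lower. Drd4 rose there by 2.62 ± 0.44 (limma adjusted p = 0.0192) and Opn1mw by 1.54 ± 0.28 (limma adjusted p = 0.0234).

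The difference between the 2 conditions was tested as an interaction, hyperoxia minus room air. It called 0 probe sets in limma (0%), with 1108 at an unadjusted p under 0.05 (7%). With limma's array weights it called 2, and without the filter 1. The 5 genes with the lowest p were Ssb, Mag, Mcm5, Taok1 and Glrx (limma adjusted p = 0.59 for each). Mcm5, a helicase subunit, stood at -0.14 ± 0.16 in room air and at -1.21 ± 0.16 in hyperoxia, an interaction of -1.07 ± 0.23. Mag, a myelin protein, stood at -0.54 ± 0.21 and 0.92 ± 0.21. Of the 9 probe sets called in room air with the opposite sign in hyperoxia, Tcl1b4 had the lowest interaction p, at -1.28 ± 0.26 against 0.21 ± 0.26, and Usp2, Lin7b and Pdlim4 were near 0 or lower in hyperoxia at -0.03, -0.19 and -0.06.

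**Figure D4:**
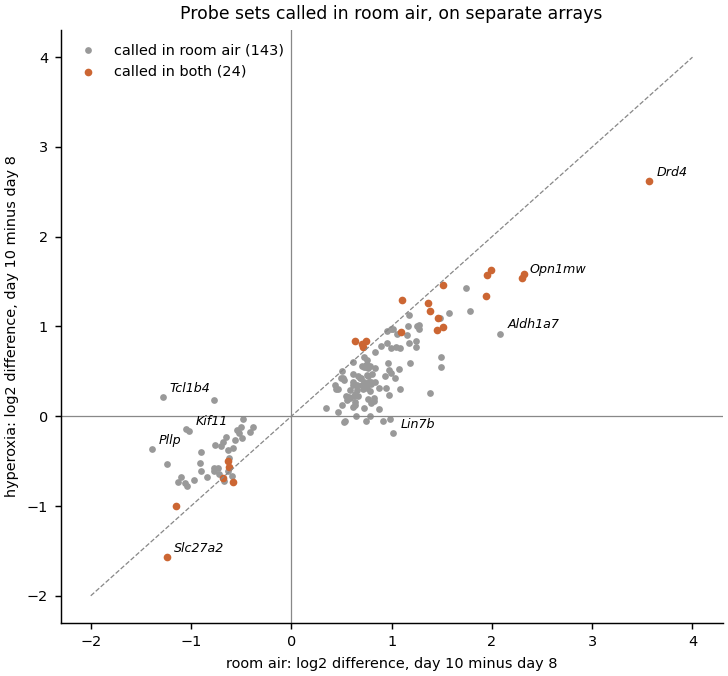
Log2 difference between days 8 and 10 in room air (horizontal axis) and in hyperoxia (vertical axis) for the 167 probe sets called in room air; the dashed line marks equal differences. The 24 orange points were called in both conditions, and all but 9 of the 167 points lie in the quadrants of equal sign.

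The interval was also set beside the rest of the room air course. From day 7 to day 8 limma called 0 probe sets, with 789 at an unadjusted p under 0.05 (4.98%), and from day 10 to day 12 it called 4 (0.0253%), 3 higher (0.0189%) and 1 lower (0.00631%), with 1057 at an unadjusted p under 0.05 (6.67%). Those intervals share arrays with this one. Between days 7 and 12, whose arrays it does not share, 1959 were called (12.4%), 1132 higher (7.15%) and 827 lower (5.22%), with 4088 at an unadjusted p under 0.05 (25.8%). Of the 167 probe sets 156 were among them, 93.4% of the 167 and 7.96% of the 1959. All 124 higher and 42 of the 43 lower calls had the same sign there, 99.4% in all, against 71.9% of all tested probe sets. The standard errors of that comparison came from the same fit, so its calls are not independent of the 167. Drd4 averaged 8.26 ± 0.81, 9.64 ± 0.52, 13.21 ± 0.25 and 13.87 ± 0.21 (SD, n = 3) at days 7, 8, 10 and 12. Aqp4 averaged 7.92 ± 0.69, 8.35 ± 0.54, 10.30 ± 0.17 and 10.99 ± 0.14, and Fabp7 13.24 ± 0.35, 12.93 ± 0.18, 11.80 ± 0.17 and 11.38 ± 0.30.

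Whether days 10 to 12 differed from days 8 to 10 was tested in 1 contrast that accounts for the shared day 10 arrays. It called 0 probe sets in limma (0%), with 744 at an unadjusted p under 0.05 (4.7%). With the deposited scaling or without the filter it called 1, and with array weights 19. The 5 genes with the lowest p were Kif11, Ms4a7, Pllp, Tcl1b4 and Slu7. Kif11 in the probe set called here averaged 8.27 ± 0.29, 8.37 ± 0.12, 7.34 ± 0.22 and 8.04 ± 0.31 (SD, n = 3) over the 4 ages, and Pllp 8.91 ± 0.26, 9.26 ± 0.22, 7.86 ± 0.77 and 9.07 ± 0.14. Both were lowest at day 10, and neither passed this test.

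**Figure D5:**
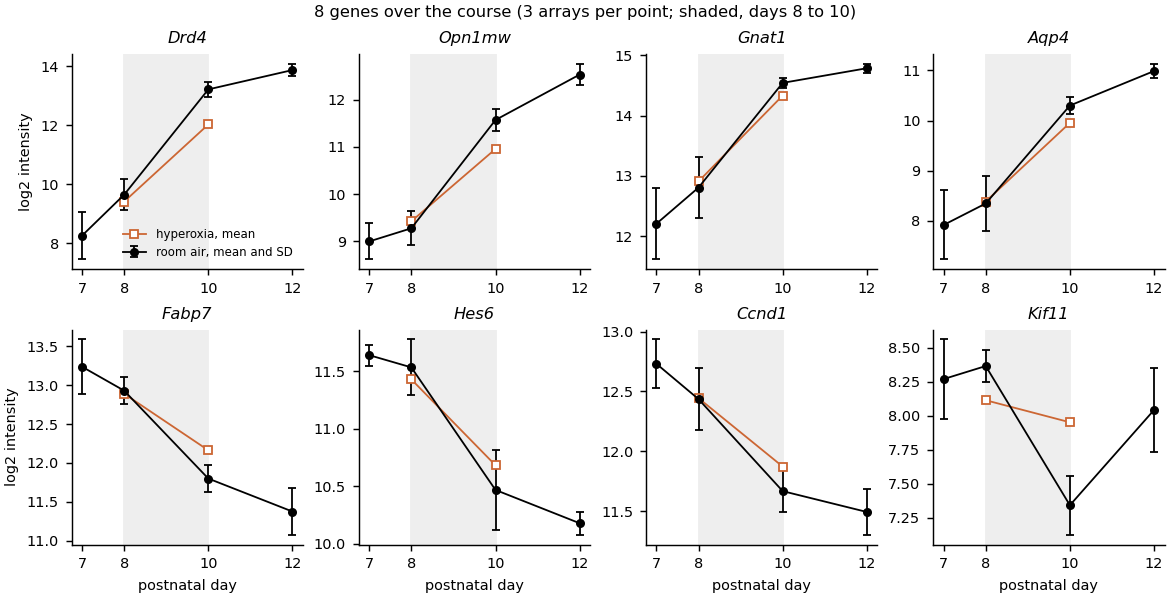
Mean log2 intensity (vertical axis) at postnatal days 7, 8, 10 and 12 (horizontal axis) in room air, with the SD over 3 arrays as bars, and in hyperoxia at days 8 and 10, for 8 genes. Drd4, Opn1mw, Gnat1 and Aqp4 climb and Fabp7, Hes6 and Ccnd1 decline through the shaded interval, and the called Kif11 probe set is lowest at day 10.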

How the data were processed

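Retinal RNA was measured on 24 arrays, 1 per sample, in 8 groups of 3. The deposited table holds a linear intensity per probe set; the authors had scaled each array to a common 2% trimmed mean, between 1500.35 and 1500.4, as computed from the deposited values. Their software is not given in the sources used here. Intensities were taken to log2, quantile normalized, and raised to a floor at the 20th percentile (7.10). Of 22626 probe sets, 64 control sets being left out, those with a mean under the 30th percentile were removed, which left 15838. Names came from the platform annotation, matched by gene identifier to RefSeq (GRCm38.p6): 20380 probe sets had 1 symbol, 691 several and 1555 none, and the last 2 kinds were not named.

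All contrasts came from 1 limma fit (version 3.58.1, R 4.3.3) over the 8 groups, with 16 residual degrees of freedom, Benjamini-Hochberg adjustment over all probe sets and a threshold of 0.05. Errors are standard errors of the fit unless marked SD. A gene counts in a list by its brightest probe set. The fit was tested on simulated data with known changes. Named genes are the 15 largest rises and falls, up to 4 called members of each list in each direction, and the 5 lowest p of the other contrasts; any other gene was picked once its values were known. The members and lists were chosen with earlier results of these data known. The labels do not say what a shared replicate number means. Deviations of same-numbered day 8 and day 10 arrays correlated at 0.38, 0.13 and 0.35. Those of differently numbered arrays correlated between -0.42 and 0.08. Deviations from a group mean are tied to each other, so these values do not establish a pairing. The fit with the replicate number as a block is an alternative. Other alternatives changed the scaling, floor, filter, prior, weights, covariates and arrays used.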

Additional observations from a re-analysis of the deposited data

How the results depend on the processing

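The count of 167 probe sets stayed within 1.5 times under another floor, filter, prior, the deposited scaling, the lens score or 1 probe set per gene. It was 754 with array weights, 73 without day 8 replicates 1 and 2 together, 58 with only the 12 room air arrays (added after seeing the data) and 1 with only the 6 arrays compared, where Drd4 was the 1 call and 1654 probe sets had an unadjusted p under 0.05. Leaving out 1 array gave 34 to 190. The cause of these shifts was not tested beyond the loss of arrays. For the interaction the count was 0 except for 1 without the filter and 2 with array weights. For the comparison of intervals it was 0 except for 1 with the deposited scaling, 1 without the filter and 19 with array weights. Both stayed at 0 whichever array was left out.

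With the replicate block 236 probe sets were called, 164 of them among the 167, and the block changed no named call other than the 6 given in the report. Of the 49 named called probe sets 0 reversed under any alternative, and only Drd4 was called in every one it was tested in. Where arrays were left out, the kept sign follows from the separation of the 2 days and is not separate support. Of 55 named genes that were not called, 24 passed under at least 1 alternative. List medians moved by more than their spread in 71 of 797 list-by-alternative values and took the other sign in 29, mostly in lists with a median near 0. The precision is limited by 3 arrays per group, and probe sets near the floor have understated differences.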

Other observations

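Further called genes, chosen after their values were seen, stood outside the lists. Il33, a nuclear cytokine, read 8.29, 8.35 and 8.93 at day 8 and 9.89, 9.80 and 10.04 at day 10, a rise of 1.38 ± 0.19 (limma adjusted p = 0.000871) that held whichever array was left out and was also called in hyperoxia, at 1.17 ± 0.19. Dio2, the deiodinase that activates thyroid hormone, went from 8.93, 8.91 and 8.36 to 10.15, 9.64 and 9.86, a rise of 1.15 ± 0.25, while its other probe sets stood at -0.29 ± 0.20 and 0.18 ± 0.63. Drd2, the D2 dopamine receptor, rose by 0.71 ± 0.14 in room air and by 0.80 ± 0.14 in hyperoxia. Slc16a1, a lactate transporter, rose by 1.04 ± 0.18, and the heat shock genes Hspa1a and Hspa1b by 0.72 ± 0.14 and 0.63 ± 0.14. The aryl hydrocarbon receptor Ahr and its repressor Ahrr both rose, by 0.69 ± 0.16 and 0.82 ± 0.17, but a second Ahr probe set stood at -0.18 ± 0.29. The calls of Dio2 and Ahr held in 1 of the 6 fits that leave out an array, those of Hspa1a, Hspa1b and Ahrr in 2, those of Drd2 and Mmp9 in 4 and that of Slc16a1 in 5. Mmp9, a gelatinase, was at the floor of 7.10 on day 8 replicates 1 and 2 and at 8.13 on replicate 3, and read 9.04, 8.75 and 8.68 at day 10, a rise of 1.38 ± 0.25 that is understated by the floor.

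A few values ran against their neighbours. Spc25, a kinetochore protein, rose by 0.84 ± 0.19 (limma adjusted p = 0.0317, a call kept in 1 of those 6 fits and up to 0.196 in the others), while 21 of 24 genes of the mitosis list had negative differences. Gldc, the glycine-cleaving enzyme of glia, fell by 0.56 ± 0.09, from 11.78, 11.82 and 11.85 to 11.08, 11.43 and 11.26, while 17 of 21 genes of the Müller glia list had positive differences, and its call held whichever array was left out. On the day 8 arrays replicate 3 had the lowest Guca1b, Gnat1, Slc24a1, Pde6a and Aqp4 values of the 3, and also the lowest lens score, 8.94, whose part in those values was not tested beyond the fit with that score.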
